A study of Rattus norvegicus with 6 samples.

Results

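This account covers 10 genes of endoplasmic reticulum (ER) stress and the amino acid response in the renal cortex of male rats given phenolphthalein. The genes were fixed by name (Hspa5, Hsp90b1, Xbp1, Herpud1, Ddit3, Atf4, Atf3, Asns, Trib3 and Chac1), and their probes were found through the RefSeq accession that the scanner files give for each probe. All 10 were measured, among 12269 named genes and 22148 unnamed probes that passed the filter on dim signals. They had 15 probes, of which 14 passed that filter.

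The tissue is the outer kidney, which holds the glomeruli and most proximal tubules, from 6 Sprague-Dawley rats, with 1 rat per array. Of these, 3 received phenolphthalein, formerly a common laxative, at 1000 mg/kg/day for 4 weeks, and 3 received the vehicle, corn oil, for 4 weeks. All rats were males of the outbred Crl:CD(SD) stock on a basal diet, bought at an age of 5 weeks, with no genetic change named. Total RNA was labelled with Cy3 and hybridised to a 1-colour Agilent rat array.

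Each array held 61657 probes besides control spots, and 64.8% to 72.1% of them were well above background. Pearson's r between arrays, across the tested genes and probes, lay between 0.988 and 0.992. The 10 proximal tubule markers, among them the phosphate transporter Slc34a1 and the endocytic receptor Lrp2, were all measured. Their summed signal relative to the array's 75th percentile was 1921 to 2060 in phenolphthalein arrays, against 2049 to 2057 in vehicle arrays. The brightest markers weigh most in that sum. Taken singly, 7 of the 10 were lower with phenolphthalein and 3 higher, with a median log2 difference of -0.10. Of all tested genes and probes, 54.2% were lower. Slc34a1 was at -0.12 with groups that did not overlap (limma adjusted p = 0.557). The arrays lay on 3 slides. Phenolphthalein replicate 1 was the sole array of its slide, phenolphthalein replicates 2 and 3 lay together, and the vehicle arrays had a slide to themselves. Each slide was scanned on a day of its own. Effects of the vehicle slide, of its scan day and of the vehicle therefore cannot be told apart.

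The ER folds proteins that are bound for membranes or secretion. When unfolded proteins build up there, the sensors ATF6, IRE1 (the product of Ern1) and PERK (the product of Eif2ak3) start the unfolded protein response. ATF6 and the spliced form of XBP1 raise chaperones and degradation factors, while PERK phosphorylates eIF2alpha, which slows translation in general and favours translation of ATF4. Lack of amino acids reaches the same ATF4 step through another kinase, GCN2, and ATF4 then raises enzymes and transporters of amino acid supply and, with CHOP (the product of Ddit3), genes of cell death and recovery. Proximal tubule cells carry a heavy load of membrane and endocytic proteins, and this response is a common readout of toxic injury in them.

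Both branches act through short promoter elements, shown here as a description. The genes were named as known members of these branches, so the counts of matches below are no independent evidence about them. The ER stress response element (ERSE) was searched as CCAAT and CCACG with any 9 bases between them, its second form (ERSE-II) as ATTGG and CCACG with any 1 base between them, and the C/EBP-ATF response element (CARE) as TGATGNAA, each on both strands, in RefSeq promoters of the GRCr8 assembly that span 250 bases before to 50 bases after the gene's start. Of the 10 genes, 9 had a promoter in that table, Atf3 being the exception. An ERSE was found in Hspa5, Hsp90b1 and Xbp1, 3 of the 9, against 0.0657% of all 33469 promoters. ERSE-II was found in Herpud1, against 0.0508% of all promoters. A CARE was found in Chac1, Trib3 and Herpud1, against 3.98% of all promoters. The cAMP response element TGACGTCA and the XBP1 element TGACGTGG were found in 0 of the 9, against 1.83% and 0.595% of all promoters. No motif overlapped another in these promoters. The letters are a description of these windows and show no binding. The 200 bases before the start of 6 of the genes follow, 5′ to 3′ on the gene's strand, with ERSE, ERSE-II and CARE matches in capitals.
Hspa5, chr3:38452816-38453015, plus strand, ERSE 43 bases before the start: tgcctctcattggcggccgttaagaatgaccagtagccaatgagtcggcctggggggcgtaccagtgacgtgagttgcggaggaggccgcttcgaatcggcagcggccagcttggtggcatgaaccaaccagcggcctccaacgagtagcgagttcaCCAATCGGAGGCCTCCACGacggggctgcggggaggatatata
Hsp90b1, chr7:23012294-23012493, minus strand, ERSE 176 and, in reverse, 72 bases before the start: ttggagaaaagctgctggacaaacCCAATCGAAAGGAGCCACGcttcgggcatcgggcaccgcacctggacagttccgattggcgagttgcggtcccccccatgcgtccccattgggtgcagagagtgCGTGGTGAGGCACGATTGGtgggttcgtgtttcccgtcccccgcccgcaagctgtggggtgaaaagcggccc
Xbp1, chr14:84604423-84604622, plus strand, ERSE 65 bases before the start: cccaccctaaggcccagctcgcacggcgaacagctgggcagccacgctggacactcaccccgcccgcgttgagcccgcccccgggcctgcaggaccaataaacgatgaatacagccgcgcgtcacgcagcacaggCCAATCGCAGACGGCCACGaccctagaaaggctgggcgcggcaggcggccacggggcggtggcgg
Herpud1, chr19:10614708-10614907, minus strand, CARE in reverse 184 and ERSE-II 124 bases before the start: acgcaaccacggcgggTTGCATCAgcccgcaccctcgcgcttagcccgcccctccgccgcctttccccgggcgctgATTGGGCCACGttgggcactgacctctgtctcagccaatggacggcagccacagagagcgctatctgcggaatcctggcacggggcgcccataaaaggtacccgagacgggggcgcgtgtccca
Chac1, chr3:126795931-126796130, plus strand, CARE in reverse 167 bases before the start: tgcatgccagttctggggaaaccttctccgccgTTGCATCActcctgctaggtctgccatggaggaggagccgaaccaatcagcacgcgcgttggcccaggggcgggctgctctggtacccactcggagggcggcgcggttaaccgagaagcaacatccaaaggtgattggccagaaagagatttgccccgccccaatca
Trib3, chr3:161275534-161275733, minus strand, CARE in reverse 21 bases before the start: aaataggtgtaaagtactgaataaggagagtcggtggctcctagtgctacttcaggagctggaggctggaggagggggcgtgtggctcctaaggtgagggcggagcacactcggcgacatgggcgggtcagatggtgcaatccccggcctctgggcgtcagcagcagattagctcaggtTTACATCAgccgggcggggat

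After 4 weeks of phenolphthalein, none of the 10 genes passed the test in either direction. Their means were lower with phenolphthalein in 9 of 10 and higher in 1, Trib3, by amounts between -0.30 and 0.24 on the log2 scale, with a median of -0.13. The median over all 34417 tested genes and unnamed probes was -0.02, with 54.2% of them lower. The groups were compared with limma across all of these, with Benjamini-Hochberg adjustment and a threshold of 0.05, and the share called was 0.0% in each direction. At an unadjusted p under 0.05, 0 of the 10 genes were called, where 8.87% of all tested genes and probes were. Levels here are log2 signals relative to the 75th percentile of the array, and differences are phenolphthalein minus vehicle, with limma's standard error (SE) and 95% interval. The intervals of all 10 genes lay between -0.86 and 0.88, so a 2-fold change in either direction lay outside each of them. In bulk tissue, fewer cells of a type and less RNA per cell cannot be told apart.

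**Figure D1:**
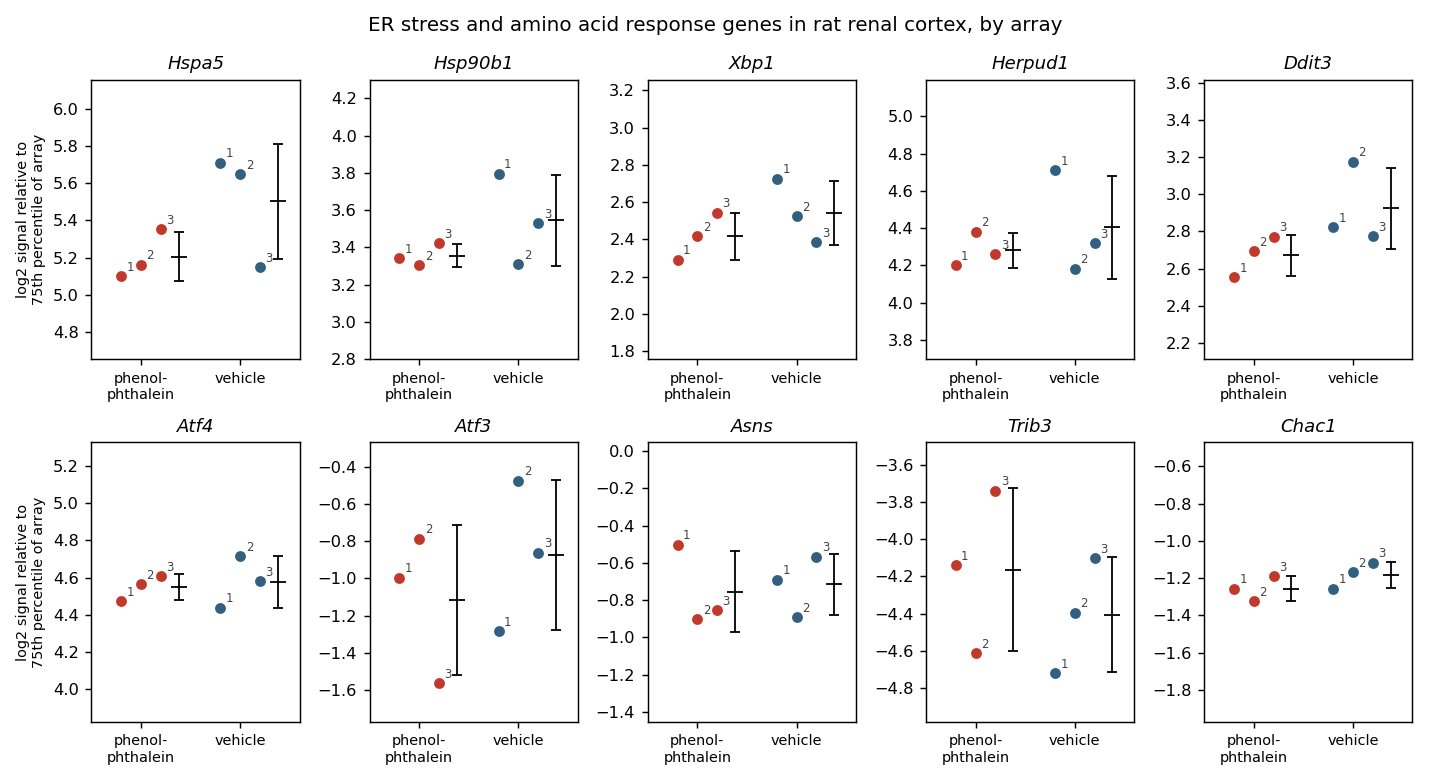
Log2 signal relative to the 75th percentile of the array (vertical axis, the same span of 1.5 in every panel) for the 10 genes, by group; points are arrays numbered by replicate and bars are mean ± SD (n = 3 each). The groups overlap for every gene but Ddit3, whose lowest vehicle value, 2.78, lies just above its highest phenolphthalein value, 2.77.

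Hspa5 encodes BiP (GRP78), the main Hsp70-type chaperone of the ER and the repressor of its stress sensors. Its levels were 5.10, 5.16 and 5.35 in phenolphthalein replicates 1, 2 and 3, against 5.71, 5.65 and 5.15 in vehicle replicates 1, 2 and 3. Of the vehicle arrays, replicates 1 and 2 lay above every phenolphthalein array, and replicate 3 lay among them. The means were 5.21 ± 0.13 in phenolphthalein and 5.50 ± 0.31 in vehicle (SD, n = 3 each). The difference was -0.30 (SE 0.15, interval -0.66 to 0.06, limma adjusted p = 0.627), a fold of 0.814. Without vehicle replicate 3 it was -0.47, with an unadjusted p of 0.00167 and a limma adjusted p of 0.529, and without vehicle replicate 1 it was -0.19, with a limma adjusted p of 0.831.

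Hsp90b1 encodes GRP94, the Hsp90-type chaperone of the ER. By the brighter of its probes, A_43_P15719, the levels were 3.34, 3.30 and 3.42 with phenolphthalein, against 3.79, 3.31 and 3.53 with vehicle. The groups overlapped through vehicle replicate 2. By its other probe, A_44_P433334, they were 0.77, 0.70 and 0.92 with phenolphthalein, against 1.03, 1.26 and 1.04 with vehicle, and the groups did not overlap. The brighter probe differed by -0.19 (SE 0.12, limma adjusted p = 0.682). The other probe differed by -0.32 (SE 0.09, interval -0.54 to -0.09), with an unadjusted p of 0.012 and a limma adjusted p of 0.487 over 43473 probes. It was 1 of the 14 tested probes of the 10 genes under 0.05, and 8.82% of all probes were, 4.91% on the lower side. The brighter probe differed by -0.06 without vehicle replicate 1 and by -0.31 without vehicle replicate 2. With the median over its probes, Hsp90b1 was at -0.25, with an unadjusted p of 0.00884 and a limma adjusted p of 0.489.

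Xbp1 encodes the transcription factor that IRE1 activates by splicing its mRNA, and the array values do not part the spliced form from the unspliced. Its levels were 2.29, 2.42 and 2.54 with phenolphthalein, against 2.73, 2.52 and 2.38 with vehicle, and the groups overlapped. The difference was -0.13 (SE 0.11, interval -0.38 to 0.12, limma adjusted p = 0.754), and it ran from -0.21 without vehicle replicate 3 to -0.04 without vehicle replicate 1. Herpud1 encodes a membrane protein of the complex that sends misfolded ER proteins to the proteasome. Its brighter probe read 4.20, 4.38 and 4.26 with phenolphthalein, against 4.71, 4.18 and 4.32 with vehicle. Vehicle replicate 1 was the highest array and vehicle replicate 2 the lowest, so the groups overlapped on both sides. The probes differed by -0.12 (SE 0.13, limma adjusted p = 0.814) and -0.09 (SE 0.11, limma adjusted p = 0.836). The brighter probe was at 0.03 without vehicle replicate 1 and at -0.23 without vehicle replicate 2.

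Ddit3 encodes CHOP, the transcription factor of the later, death-prone phase of ER stress. Its brighter probe, A_64_P059495, read 2.56, 2.69 and 2.77 with phenolphthalein, against 2.82, 3.17 and 2.78 with vehicle. Its other probe, A_44_P445344, read -0.06, 0.01 and 0.12 with phenolphthalein, against 0.18, 0.50 and 0.12 with vehicle. By both probes each vehicle array lay above each phenolphthalein array, with vehicle replicate 2 well above the rest and vehicle replicate 3 barely clear of phenolphthalein replicate 3. The brighter probe averaged 2.67 ± 0.11 in phenolphthalein and 2.92 ± 0.22 in vehicle (SD, n = 3 each), a difference of -0.25 (SE 0.12, interval -0.53 to 0.03, limma adjusted p = 0.601), and the other probe differed by -0.24. Ddit3 was the 1 gene of the 10 whose groups did not overlap on the lower side, where 9.11% of all tested genes and probes did not, and 0 of the 10 were clear on the higher side, where 6.59% were. Counted by probe, 3 of the 14 were clear on the lower side and 0 on the higher side, where 8.98% and 6.64% of all probes were. Without vehicle replicate 2 the difference of the brighter Ddit3 probe was -0.13.

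**Figure D2:**
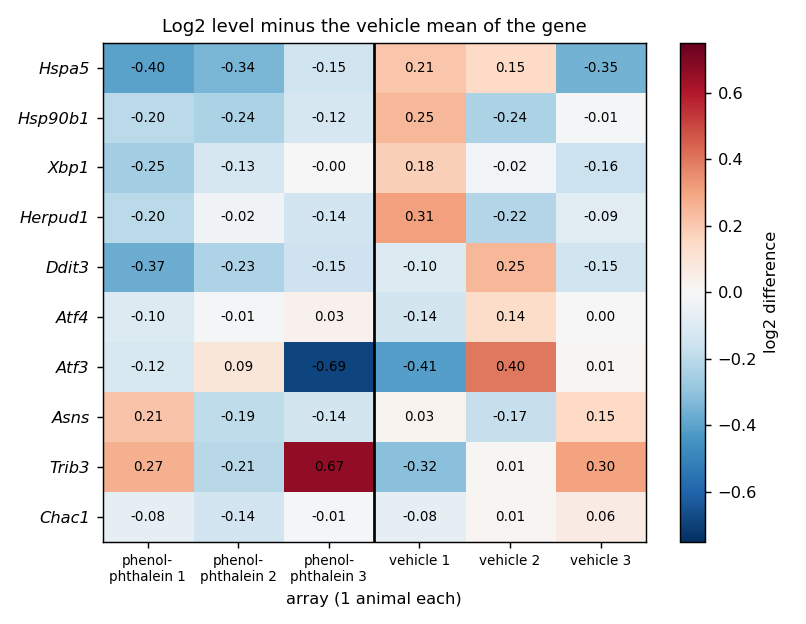
Log2 level of each gene on each array minus that gene's vehicle mean (colour and printed value; rows are genes, columns are the 6 arrays, 1 animal each). Vehicle replicate 1 is high for Hspa5, Hsp90b1, Xbp1 and Herpud1, vehicle replicate 2 is high for Ddit3, Atf4 and Atf3, and Atf3 and Trib3 spread most within a group.

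Atf4 encodes the transcription factor that stands at the centre of the integrated stress response and is controlled mainly by translation. Its levels were 4.47, 4.57 and 4.61 with phenolphthalein, against 4.44, 4.71 and 4.58 with vehicle. The phenolphthalein arrays lay within the vehicle range, and the difference was -0.03 (SE 0.08, interval -0.22 to 0.16, limma adjusted p = 0.936). It was 0.04 without vehicle replicate 2, 0.01 without phenolphthalein replicate 1 and -0.098 without vehicle replicate 1, and -0.10 after normexp background correction. Atf3 encodes a stress-induced transcription factor downstream of ATF4. Its levels were -0.996, -0.786 and -1.56 with phenolphthalein, against -1.28, -0.476 and -0.862 with vehicle. The groups overlapped widely, and the difference of -0.24 (SE 0.26, interval -0.86 to 0.37, limma adjusted p = 0.812) was -0.02 without phenolphthalein replicate 3 and -0.45 without vehicle replicate 1.

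Among the ATF4 targets, Asns encodes asparagine synthetase, a marker of the response to amino acid lack. Its levels were -0.50, -0.90 and -0.85 with phenolphthalein, against -0.69, -0.89 and -0.57 with vehicle. Phenolphthalein replicate 1 was the highest array and phenolphthalein replicate 2 the lowest, with all vehicle arrays between them. The difference was -0.04 (SE 0.14, interval -0.36 to 0.29, limma adjusted p = 0.953), and its sign turned when phenolphthalein replicate 2 (0.04), phenolphthalein replicate 3 (0.01) or vehicle replicate 3 (0.04) was left out. Without phenolphthalein replicate 1 it was -0.16.

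Trib3 encodes a pseudokinase that ATF4 and CHOP induce and that dampens their action. It was well above background on all 6 arrays, at -4.14, -4.61 and -3.74 with phenolphthalein, against -4.72, -4.39 and -4.10 with vehicle. The groups overlapped, and the SDs were 0.44 in phenolphthalein and 0.31 in vehicle. The difference was 0.24 (SE 0.27, interval -0.40 to 0.88, limma adjusted p = 0.819), and it ran from 0.03 without phenolphthalein replicate 3 to 0.47 without phenolphthalein replicate 2. Chac1 encodes a gamma-glutamylcyclotransferase that degrades glutathione and is a late target of the ATF4 and CHOP branch. Its brightest probe read -1.26, -1.32 and -1.19 with phenolphthalein, against -1.26, -1.17 and -1.12 with vehicle. The groups overlapped within a narrow range, and the difference was -0.08 (SE 0.08, interval -0.27 to 0.12, limma adjusted p = 0.816). That interval is of the brightest probe alone. A dimmer probe, with means of -5.59 in phenolphthalein and -5.51 in vehicle, differed by -0.08 (SE 0.21). It was well above background on 3 phenolphthalein arrays and 2 vehicle arrays. The dimmest, A_43_P17471, with means of -8.5 in phenolphthalein and -8.3 in vehicle, was not well above background on any array and was not tested.

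**Figure D3:**
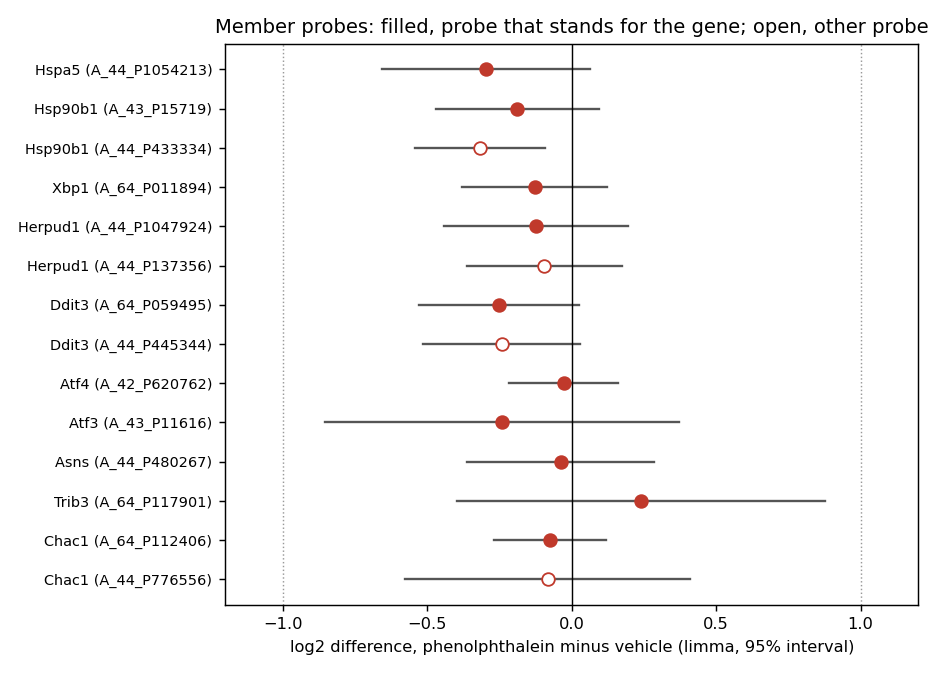
Log2 difference, phenolphthalein minus vehicle (horizontal axis, points), with limma's 95% interval (lines) for the 14 tested probes of the 10 genes; filled points stand for the gene, and dotted lines mark a 2-fold change. Of the 14 probes, 13 lie below 0 and 1 interval, that of Hsp90b1 probe A_44_P433334, does not reach 0.

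The SD between vehicle rats was larger than that between phenolphthalein rats for 8 of 10 genes. Vehicle replicate 1 was the highest of the 6 arrays for 4 genes, the chaperones Hspa5 and Hsp90b1 with Xbp1 and Herpud1, while vehicle replicate 2 was the highest for Ddit3, Atf4 and Atf3. The closest pairs, by the root mean square difference of their log2 levels over the 6 arrays after each gene was centred on its mean, were Atf4 with Chac1 (0.081) and Hsp90b1 with Herpud1 (0.091). The most distant pair was Atf3 with Trib3 (0.57). Relative to each gene's vehicle mean, the median over the 10 genes was -0.16, -0.17 and -0.13 on phenolphthalein replicates 1, 2 and 3. On vehicle replicates 1, 2 and 3 it was -0.03, 0.01 and -0.006, and the centring on the vehicle mean keeps these near 0. Phenolphthalein replicate 1, set against the mean of phenolphthalein replicates 2 and 3, was lower for 7 of 10 genes, and the median difference was -0.07.

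By the same measure, the gene whose levels ran closest to Hspa5 among 12254 named genes was Sptb, a spectrin of the membrane skeleton (0.06), and the next was Pdia4, a protein disulfide isomerase of the ER (0.065). Hfe, an iron-regulating protein of the MHC class I type, the DNA nuclease Gen1 and the leukocyte integrin Itga4 followed (0.066, 0.08 and 0.089), where the levels of Hspa5 itself scattered by 0.24. Pdia4 read -0.79, -0.76 and -0.68 with phenolphthalein, against -0.31, -0.28 and -0.91 with vehicle. As for Hspa5, vehicle replicates 1 and 2 lay above the phenolphthalein arrays and vehicle replicate 3 did not, and Pdia4 differed by -0.24 (SE 0.17, limma adjusted p = 0.715). Closest to Asns were Fam222a, Jph3, the serine protease gene Hpn, Hspb2 and Cyp4f40, at 0.028 to 0.051, where Asns itself scattered by 0.16. The likeness rests on 6 arrays and the best of many genes, and is a description.

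Wider lists of the same pathways, 134 genes in 7 lists besides the 10, were read in the same way. Of these, 121 were tested, 82 were lower and 39 higher with phenolphthalein, and the median was -0.03, against -0.02 over all tested genes and probes. The share lower was 67.8%, where 54.2% of all tested genes and probes and 55.6% of the named genes among them were lower. Those background shares also stand beside the counts of each list below. At an unadjusted p under 0.05, 4 were lower and 2 higher, where 4.96% and 3.91% of all tested genes and probes were, and 0 passed adjustment by limma in either direction (smallest adjusted p = 0.434).

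Among 17 sensors and regulators of eIF2alpha, 12 were lower and 5 higher, with a median of -0.06. With the median over each gene's probes, 8 were lower and the list median was 0.01. Ppp1r15a encodes GADD34, the phosphatase subunit that undoes eIF2alpha phosphorylation and is itself a target of ATF4 and CHOP. It read 0.84, 0.96 and 1.04 with phenolphthalein, against 0.73, 0.61 and 0.62 with vehicle, with every phenolphthalein array above every vehicle array. The difference was 0.30 (SE 0.08, limma adjusted p = 0.466, unadjusted p = 0.00754), and its other probe differed by 0.39. Creb3l2, an ER-bound transcription factor, was at -0.16 (limma adjusted p = 0.520) by the probe used and 0.21 by its other probe. The sensor gene Atf6 was at -0.18 by the probe used and lower by all 3 of its probes. The double-stranded RNA kinase Eif2ak2 was at -0.19, with its other probe at 0.24. Over the alternatives Atf6 ran from -0.23 to -0.04, reaching -0.04 with normexp.

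Of 20 ER chaperones and folding enzymes, 16 were lower and 4 higher, with a median of -0.06. Sdf2l1, a partner of BiP in the ER, read 2.02, 1.86 and 1.84 with phenolphthalein, against 2.59, 2.36 and 2.08 with vehicle. The groups did not overlap, the difference was -0.44 (SE 0.13, limma adjusted p = 0.495, unadjusted p = 0.013), and its 3 probes gave -0.44 to -0.33. Uggt1, the glucosyltransferase that senses misfolded glycoproteins, was at -0.43 and the disulfide isomerase P4hb at -0.17, while the reductase Dnajc10 was at 0.17 by the probe used and -0.06 by its other probe. Uggt1 was dim, with means of -4.76 in phenolphthalein and -4.33 in vehicle. Over the alternatives Uggt1 ran from -0.60 to -0.20, reaching -0.20 with normexp, and P4hb ran from -0.27 to -0.11. By array, the median of this list relative to each gene's vehicle mean was -0.01, -0.14 and -0.05 on phenolphthalein replicates 1, 2 and 3, against 0.08, 0.005 and -0.10 on vehicle replicates 1, 2 and 3. The groups thus overlapped in this list.

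For ER-associated degradation, 12 of 17 tested genes were lower, with a median of -0.02. With the median over each gene's probes, 7 were lower and the list median was 0.01. Edem2, a lectin-type factor that marks misfolded glycoproteins, was at -0.25 (SE 0.09, limma adjusted p = 0.535) with groups that did not overlap. Its relative Edem3 was at -0.45 with overlapping groups. It was dim, with means of -4.60 in phenolphthalein and -4.15 in vehicle. Over the alternatives Edem3 ran from -0.59 to -0.19, reaching -0.19 with normexp. The ubiquitin-conjugating enzyme Ube2g2 was at 0.12, and the ubiquitin ligase Syvn1 at -0.11 by the probe used and 0.18 by its other probe. Of 17 genes of protein import into the ER, 10 were lower and 7 higher, with a median of -0.04. Srp72, a subunit of the signal recognition particle, read 2.87, 2.84 and 3.04 with phenolphthalein, against 2.58, 2.64 and 2.60 with vehicle. Every phenolphthalein array lay above every vehicle array, the difference was 0.31 (SE 0.07, limma adjusted p = 0.434, unadjusted p = 0.00329), and all 6 of its probes were higher, by 0.03 to 0.31. With the median over its probes Srp72 was at 0.12. The signal peptidase subunit Spcs3 was at 0.22 by the probe used, and all 3 of its probes were higher, by 0.22 to 0.53. With the median over its probes Spcs3 was at 0.49. The translocon subunits Sec61g and Sec61b were at -0.14 and -0.09, with the other probe of Sec61b at 0.004.

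**Figure D4:**
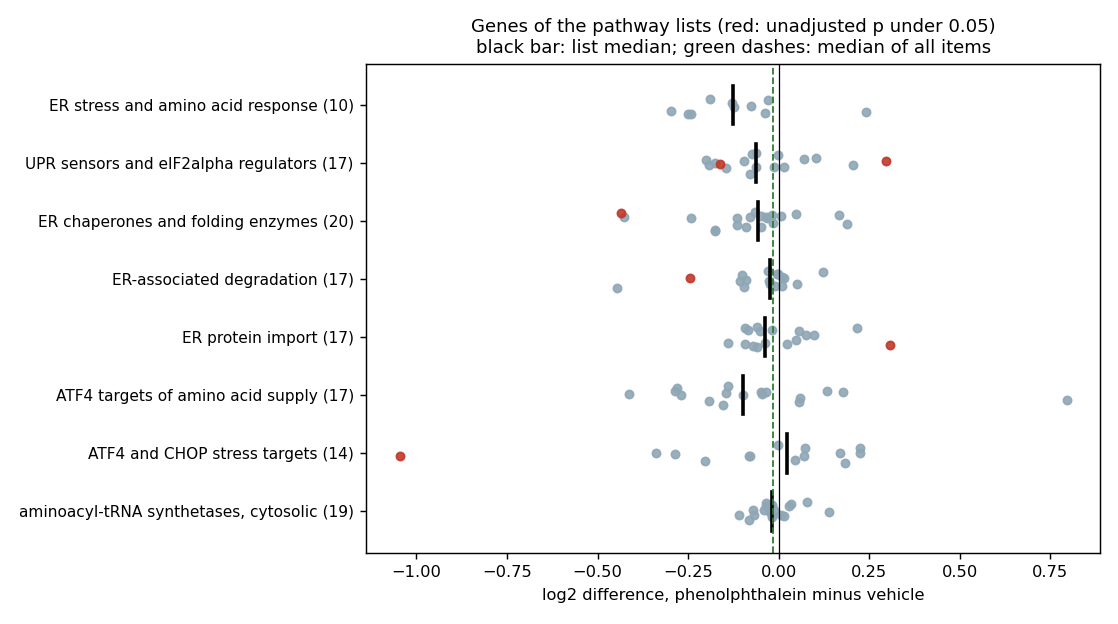
Log2 difference, phenolphthalein minus vehicle (horizontal axis), of each tested gene of the 8 lists, with the number tested in brackets; red points have an unadjusted p under 0.05, black bars are list medians and the green dashed line is the median of all tested genes and probes. List medians lie between -0.13 and 0.02, and the points farthest from 0 are Ddit4 at -1.05 and Slc1a4 at 0.80.

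The ATF4 targets of amino acid supply had 12 of 17 tested genes lower, with a median of -0.10 and 0 genes at an unadjusted p under 0.05 in either direction. With the median over each gene's probes, 7 of 17 were lower and the list median was 0.06, so its direction depends on the probe used. The serine synthesis genes Psph and Phgdh were at -0.28 and -0.14, and the proline synthesis gene Aldh18a1 at -0.27. Psph was at -0.47 without phenolphthalein replicate 2, Phgdh at -0.04 without phenolphthalein replicate 1 and Aldh18a1 at -0.13 without vehicle replicate 1. The neutral amino acid transporter Slc1a4 was at 0.80 (SE 0.38, limma adjusted p = 0.602), from -3.60, -5.00 and -4.74 with phenolphthalein, against -5.00, -5.43 and -5.29 with vehicle. Phenolphthalein replicate 1 stood far above the other 5 arrays, the groups overlapped, and 1 of the 3 vehicle spots was not well above background. Slc1a4 was at 0.37 without phenolphthalein replicate 1 and at 0.35 with normexp. Relative to each gene's vehicle mean, the median of the list was -0.26, -0.04 and -0.05 on phenolphthalein replicates 1, 2 and 3, against -0.05, -0.06 and 0.04 on vehicle replicates 1, 2 and 3.

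Of 14 stress targets of ATF4 and CHOP, 7 were lower and 7 higher, with a median of 0.02. With the median over each gene's probes, the list median was -0.003. Ddit4 encodes REDD1, an inhibitor of mTORC1 that ATF4, hypoxia and glucocorticoids each induce. It read 1.83, 2.24 and 1.38 with phenolphthalein, against 2.71, 2.59 and 3.29 with vehicle. The groups did not overlap, the difference was -1.05 (SE 0.26, interval -1.65 to -0.44, limma adjusted p = 0.452, unadjusted p = 0.00475), and its 3 probes gave -1.05 to -0.79. Atf5, a relative of Atf4, was at 0.17, the lipoprotein receptor Vldlr at -0.20 and the ER-associated caspase gene Casp12 at -0.29, each with groups that did not overlap and a limma adjusted p between 0.569 and 0.606. The 19 tested cytosolic aminoacyl-tRNA synthetases, which ATF4 raises in concert in amino acid lack, lay between -0.11 and 0.14, with 13 lower, a median of -0.02 and 0 at an unadjusted p under 0.05. Wars1 (-0.11), Qars1 (-0.07), Cars1 (0.14) and Kars1 (-0.08) had the smallest p of them.

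**Figure D5:**
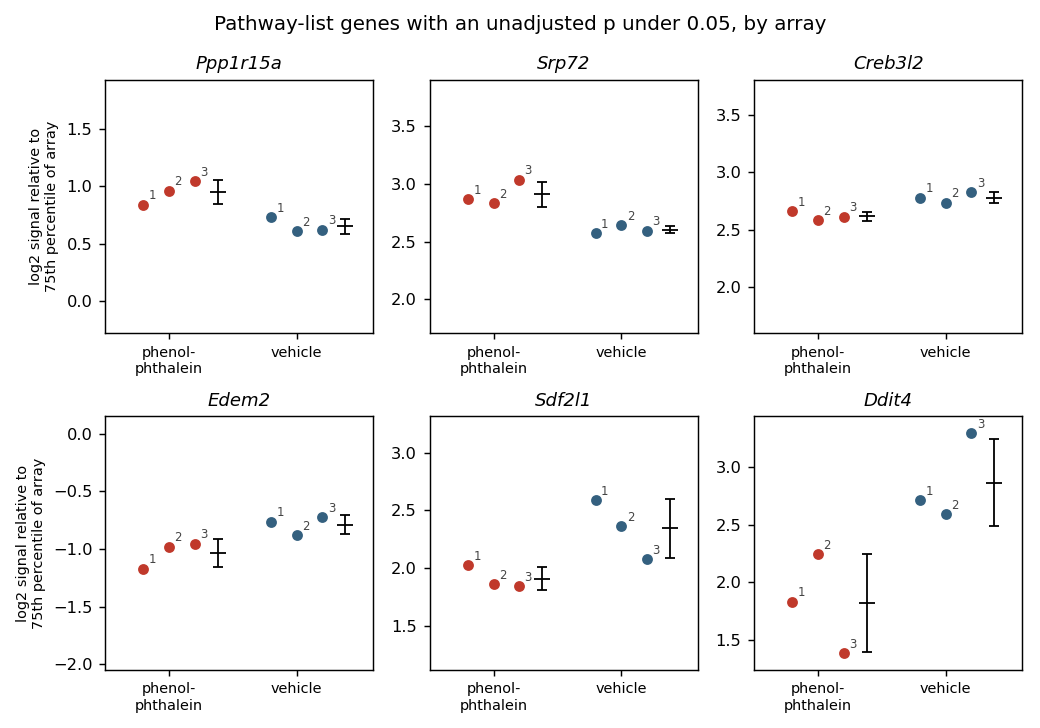
Log2 signal relative to the 75th percentile of the array (vertical axis, the same span of 2.2 in every panel) for the 6 genes of the wider lists with an unadjusted p under 0.05; points are arrays numbered by replicate and bars are mean ± SD (n = 3 each). Ppp1r15a and Srp72 are higher and Creb3l2, Edem2, Sdf2l1 and Ddit4 lower with phenolphthalein on every array, and none passes adjustment.

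The promoter elements shown above also gave a set of genes chosen by sequence alone, after the data had been seen. Of 38 genes with an ERSE or ERSE-II match in the promoter table, 27 were tested, 18 were lower and 9 higher, with a median of -0.03. Without the 4 of the 10 genes that carry a match, 14 of 23 were lower and the median was -0.03. Of the 4 of the 10 genes in the set, Hspa5, Hsp90b1, Xbp1 and Herpud1, all were lower in the mean, as given above. Derl3 was at -0.28 with overlapping groups. Dnajb11 and Hyou1, both co-chaperones of BiP, were at -0.18 and -0.12, and the lectin chaperones Calr and Canx at -0.03 each. Creld2 was at -0.02, Dnajc3 at 0.05 and the oxidase Ero1b at 0.19. By their other probes, Dnajb11 was at -0.18, Hyou1 at -0.43, Canx at 0.006 and Ero1b at -0.15. The gene at an unadjusted p under 0.05 was Defb52, a beta-defensin, at -0.64 (limma adjusted p = 0.464). These genes were named after their values were seen.

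Markers of other cell types were read beside these genes, and none of the leukocyte or liver markers passed adjustment by limma (smallest adjusted p = 0.433). No tested gene or probe of the arrays did. All 8 tested macrophage and monocyte markers were lower, and their summed linear signal, relative to the 75th percentile, was 98.7 to 107.5 in phenolphthalein arrays, against 123.1 to 157.8 in vehicle arrays. All 8 tested T and NK cell markers were lower, with sums of 1.81 to 2.46 in phenolphthalein arrays, against 2.60 to 3.60 in vehicle arrays. At an unadjusted limma p under 0.05, 6 of the macrophage and monocyte markers and 4 of the T and NK cell markers were lower. Of all tested genes and probes, 4.96% were. In each of these lists 4 markers had groups that did not overlap on the lower side, where 9.11% of all did not. Of the B and plasma cell and liver markers, 0 had an unadjusted p under 0.05. B and plasma cells had 4 of 5 tested markers lower, with sums of 1.07 to 1.97 in phenolphthalein arrays, against 1.03 to 2.44 in vehicle arrays. The largest term of the B and plasma cell sum on each array was Derl3, an ER degradation factor whose promoter also holds an ERSE, so that sum does not read these cells alone. Liver markers summed to 19.5 to 39.2 in phenolphthalein arrays, against 14.5 to 29.4 in vehicle arrays, with 11 of 12 higher in the mean. Phenolphthalein replicate 2 gave the 39.2, and the other phenolphthalein arrays, at 20.2 and 19.5, lay within the vehicle range. Of tested markers, 2 of 4 were lower for the thick ascending limb and distal tubule and 3 of 7 for the collecting duct. For podocytes 3 of 5 were lower, and for endothelium 2 of 5. Slc12a3 was at -0.39 (limma adjusted p = 0.357) by the probe used, with its 3 probes from -0.39 to 0.47. Aqp2 was at -0.58 and Podxl at 0.29. The part of these cells in the values of the 10 genes was not tested.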

How the data were processed

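Arrays of 6 rats were used, 3 per group. Per the file headers, the authors' deposited files hold spot intensities that Agilent Feature Extraction 10.7.1.1 background-subtracted and detrended within each array, on a design annotated on rn4, and no step between arrays is recorded there. Version 10.7 is named in the submitters' processing notes. The deposited value table holds a linear ratio whose making is not given in the sources used here. Each of its columns matched another replicate's scanner file of the same group, divided by the 75th percentile, with column medians of 0.102 to 0.106. Which rat of a group a replicate number stands for is therefore not settled, and replicate numbers here name the scanner files. It served as an alternative, and 0 columns were left out.

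From the intensities, log2 minus the log2 of the array's 75th percentile over 61657 non-control probes was computed, with 2 to 14 outlier spots per array set to missing. No probe was saturated. RefSeq accessions, without versions, named 27460 probes with 1 symbol of GRCr8, none with several, and 34197 had none. Items well above background on at least 3 arrays were kept, with the brightest probe (highest mean over all arrays) for each gene. They were tested with limma 3.58.1 in R 4.3.3 (intensity trend, two-sided, Benjamini-Hochberg, threshold 0.05), and again for each probe on its own. The fit was tested on simulated data. The number of arrays limits the precision.

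The 10 genes and the lists were chosen with earlier results of these data known. Named are the 10 genes, up to 4 of each list with the smallest p, the 5 genes closest to Hspa5 and to Asns, and others where stated. Alternatives were normexp, quantile and median normalization, 2 filters, the median of probes, the slide as a random block, the replicate block, no trend, the value table and each array left out. The planned normexp used a mean signal and was not run. Normexp on the median signal (offset 50) was added after seeing the data.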

Additional observations from a re-analysis of the deposited data

How the results depend on the processing

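All 10 genes stayed short of the threshold under each of the 16 alternatives. The replicate block, the fit without a trend and the filters leave the size of these differences as it is by construction, and the value table holds the same arrays. Signs turned in 6 cases, all from leaving out an array: Atf4 at 0.0092 without phenolphthalein replicate 1 and 0.040 without vehicle replicate 2, Asns at 0.037, 0.013 and 0.037 without phenolphthalein replicate 2, phenolphthalein replicate 3 or vehicle replicate 3, and Herpud1 at 0.030 without vehicle replicate 1. With an array left out, Atf4 ran from -0.098 to 0.040, Asns from -0.16 to 0.037 and Herpud1 from -0.23 to 0.030. Among 28 other named genes, signs turned in 4 cases, all with the median over a gene's probes: Creb3l2 at 0.022, Eif2ak2 at 0.022, Syvn1 at 0.039 and Wars1 at 0.040, and their probes differ in sign. That setting also turned the sign of several list medians. These were the sensors and eIF2alpha regulators (0.01), ER-associated degradation (0.01), the ATF4 targets of amino acid supply (0.06) and the ATF4 and CHOP stress targets (-0.003). The median over the 10 genes was -0.13 to -0.12 with all arrays and ran from -0.18 (without vehicle replicate 3) to -0.081 (without vehicle replicate 1) with an array left out. The count of the 10 genes at an unadjusted p under 0.05 was 0 to 2. In the main fit it was 0, where 8.87% of all tested genes and probes were under 0.05. With no array left out, it was above 0 only with the median over a gene's probes. There it was 1, Hsp90b1 at -0.25 (limma unadjusted p = 0.00884, adjusted p = 0.489). With all arrays, 0 genes and 0 probes passed in either direction under every alternative. Leaving out an array gave 0 to 1 higher and 0 to 1 lower, genes and probes alike, and none of those called belongs to the pathway lists. The replicate block called 0 genes higher and 0 lower, and its median, -0.13, equals that without the block by construction in these balanced groups. Same-numbered rats did not deviate together (correlations of -0.0061, -0.015 and 0.025). The median over the 10 genes was also -0.13 with slides as a random block. No slide held arrays of both groups, so this block cannot part a slide effect from that of the treatment.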
